A study of Homo sapiens with 3 samples.

Results

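The tubulin family was followed through 10 genes of 19775 named on the arrays: the beta-tubulins TUBB3, TUBB, TUBB6, TUBB2A, TUBB2B and TUBB4B, the alpha-tubulin TUBA1A, and the gamma-, delta- and epsilon-tubulins TUBG1, TUBD1 and TUBE1. They are read by 17 probe sets of the 41091 that the array's annotation gives to exactly 1 gene, and no filter on expression was set. The family was chosen by measured values of these same arrays, TUBB3 being higher and TUBE1 lower with both hairpins against UHRF1, so the members' differences are given as descriptions without a test. The arrays were made from HCT116, a human colorectal carcinoma line. The control array carried a scrambled short hairpin RNA (Scr_shRNA). The depleted cells carried a hairpin to UHRF1, either hairpin 2 (UHRF1_sh2) or hairpin 5 (UHRF1_sh5), and each was put on 1 array. All 3 cultures were infected with lentivirus and taken after 6 days of puromycin selection, so the control shares the virus and the drug. UHRF1 binds hemimethylated DNA and is needed to maintain DNA methylation.

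Microtubules are hollow polymers of alpha- and beta-tubulin dimers, and each of these subunits comes from several closely similar genes. Gamma-tubulin forms the ring from which new microtubules grow, and delta- and epsilon-tubulin are needed for the triplet microtubules of centrioles. Cells hold the pool of free dimers in check: TTC5 binds alpha- and beta-tubulin chains as they leave the ribosome and sets off decay of their mRNAs when free tubulin is plentiful. In intestinal epithelium TUBB and TUBB4B are the common beta subunits, while TUBB3 is best known from neurons and is also found in many carcinomas.

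Promoter sequences are shown for the 3 genes that were at least 1.5-fold higher with both hairpins at every probe set (TUBB3, TUBB4B and TUBA1A) and for TUBE1, the gene that was lower, since loss of UHRF1 acts on DNA methylation and these are the CpG-bearing regions in front of the genes the results turn on. They come from RefSeq on build GRCh38.p14, in gene orientation, as the 250 bases before the annotated start. TUBB3 has a pair of annotated starts, and the one shown is the downstream one, inside the gene (chr16:89923092-89923341, plus strand). TUBB4B is at chr9:137241037-137241286 on the plus strand and TUBA1A at chr12:49189081-49189330 on the minus strand. TUBE1 starts back to back with FAM229B, and the 108 bases between the starts are shown (chr6:112087483-112087590, minus strand). Capitals mark matches to CCAAT and to GGGCGG and to TATAAA, each read on either strand.
TUBB3: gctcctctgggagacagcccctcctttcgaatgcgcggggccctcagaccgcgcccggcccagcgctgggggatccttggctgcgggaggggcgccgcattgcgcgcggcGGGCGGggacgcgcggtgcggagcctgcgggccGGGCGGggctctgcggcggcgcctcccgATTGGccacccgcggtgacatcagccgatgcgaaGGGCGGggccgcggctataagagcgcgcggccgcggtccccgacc
TUBB4B: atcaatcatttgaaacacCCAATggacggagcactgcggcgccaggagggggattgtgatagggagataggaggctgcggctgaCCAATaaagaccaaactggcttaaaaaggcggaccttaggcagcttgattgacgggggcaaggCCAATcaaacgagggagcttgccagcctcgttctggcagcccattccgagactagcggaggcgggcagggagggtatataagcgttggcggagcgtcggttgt
TUBA1A: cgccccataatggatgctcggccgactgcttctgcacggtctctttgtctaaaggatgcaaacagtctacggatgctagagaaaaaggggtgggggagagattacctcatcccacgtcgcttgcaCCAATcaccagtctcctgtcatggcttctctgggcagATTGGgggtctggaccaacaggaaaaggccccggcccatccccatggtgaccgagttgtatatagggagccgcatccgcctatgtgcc
TUBE1: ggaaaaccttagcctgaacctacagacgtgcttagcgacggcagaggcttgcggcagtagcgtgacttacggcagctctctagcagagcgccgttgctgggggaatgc

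The windows differed widely in CpG count. The downstream TUBB3 window held 39 CpG dinucleotides, and 97.8% of 35116 promoter windows of the same length held no more. Its upstream window held 9, TUBB4B held 15, TUBA1A 11 and the full TUBE1 window 19, against a median of 11 over all windows. In all, 11 of the members' 13 windows lay above that median. CCAAT, read on both strands, was in 7 of the 13, among them TUBB4B with 3 matches, TUBA1A with 2 and the downstream TUBB3 window with 1, and in 32.0% of all windows. GGGCGG was in 7 of the 13, 3 times in the downstream TUBB3 window and not in TUBB4B or TUBA1A, and in 42.6% of all windows. TATAAA was in the TUBB2A window alone among the 13 and in 10.7% of all. TTTGAA was in that of TUBB4B alone (13.3% of all), and TGACGTCA in that of TUBB2A alone (1.65% of all). None of the 5 motifs was in the windows of TUBE1 and TUBD1 or in the upstream windows of TUBB3 and TUBB6, and no matches of different motifs overlapped in a member's window. A match describes these letters only. The arrays measure RNA, and methylation of these windows was not analysed here.

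The targeted gene was checked first. UHRF1, on its 1 probe set, read 8.54 in the control against 6.20 (hairpin 2) and 6.67 (hairpin 5), or 5.09-fold and 3.68-fold lower. Array medians lay between 2.98 and 3.04 on the log2 scale. The epithelial markers EPCAM, KRT8, KRT18 and KRT19 read between 9.93 and 12.48 on all 3 arrays, while 4 of 12 markers of that list (VIL1, LGALS4, CDH17 and TSPAN8) lay below 3.28, the 40th percentile of gene levels, on each array. All 6 leukocyte markers and 6 of 9 fibroblast and endothelium markers also lay below it on each array. The interferon-induced gene IFIT1 differed by 6.79 with hairpin 2 and by 2.19 with hairpin 5, and the part of that response in the tubulin values was not tested. There is 1 array per hairpin, so a difference from the control has no replicate check, and the SD given below is the spread between the 2 hairpins, in which hairpin, culture and array cannot be told apart. Levels of different probe sets are not comparable with each other.

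**Figure D1:**
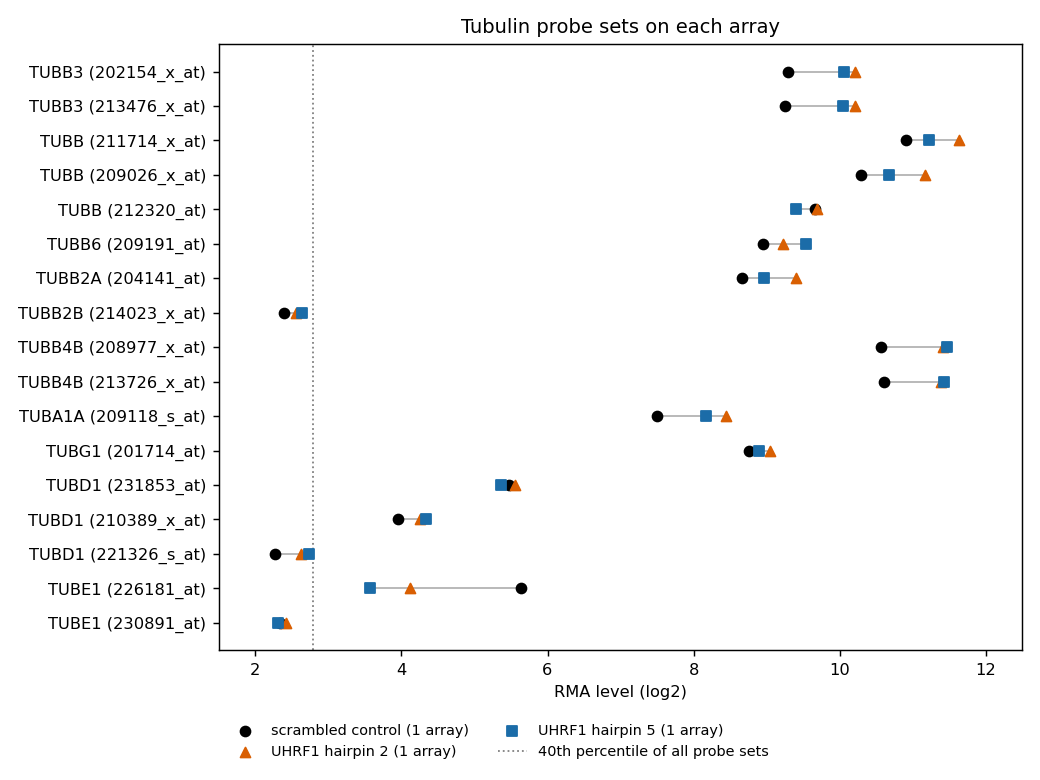
RMA level (log2) of each of the 17 tubulin probe sets on the control array (circles), the hairpin 2 array (triangles) and the hairpin 5 array (squares), with a grey line joining the lowest and highest array and a dotted line at the 40th percentile of all probe sets. Both hairpin arrays lie to the right of the control for TUBB3, TUBB4B and TUBA1A, and to its left for the brighter TUBE1 probe set, which goes from 5.63 to 4.12 and 3.58.

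Most beta-tubulin probe sets read higher with both hairpins, as did the 1 set of TUBA1A, the only alpha-tubulin member. Epsilon-tubulin was lower at the brighter of its pair. TUBB3, the neuron-associated beta-tubulin, was higher by a factor of 1.90 (hairpin 2) and 1.71 (hairpin 5). TUBB4B was 1.80-fold and 1.85-fold higher, and TUBA1A 1.93-fold and 1.59-fold higher. TUBE1 was 2.85-fold and 4.16-fold lower. In these bulk RNA samples, fewer cells of a type and less RNA per cell cannot be told apart. At 1.5-fold or more with both hairpins, 5 of 17 member probe sets were higher, against 0.482% of all probe sets of 1 gene, and 1 was lower, against 0.808%. The higher ones belong to 3 genes and the lower one to TUBE1. All 5 higher sets have names ending in _x_at or _s_at, which mark sets that can match several transcripts. These counts, and the member counts given below, rest on the contrast that chose the family, and nothing is read from them.

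TUBB3 was read by a pair of probe sets. The first (202154_x_at) stood at 9.29 in the control, 10.21 (hairpin 2) and 10.06 (hairpin 5), and the other (213476_x_at) at 9.26, 10.21 and 10.04. Both hairpin arrays lay above the control at both probe sets, and the mean difference was 0.85 ± 0.10 and 0.87 ± 0.12 (SD, n = 2 hairpins). Both probe sets have names ending in _x_at, Affymetrix's mark for sets with probes that can also match other transcripts, and TUBB3 has no probe set of another kind here. Of 17 neuron markers on the array, read because TUBB3 is itself a neuron marker, 10 lay below 3.28 in the control, 11 under hairpin 2 and 10 under hairpin 5. SNAP25, NEFL, NEFM, GAP43, STMN2, ELAVL4 and DCX were among those below it on all 3. The log2 values of the 17 added up to 60.0 in the control, 60.4 under hairpin 2 and 62.5 under hairpin 5. Such a sum is no amount of RNA, since levels of different probe sets are not comparable. The part of neuron marker expression in the TUBB3 values was not tested. None of the 7 tested markers was 1.5-fold higher with both hairpins. Of the 7, 5 were above the control with both and 0 below, against 29.0% and 32.3% of all genes tested. The 7 had medians of 0.21 and 0.36, against 0.03 and −0.06 over all genes tested. Of the 5, MAP2 (0.324 and 0.006) and SYP (0.003 and 0.477) were level with the control under 1 hairpin. As means over their probe sets and both hairpins, MAP2 stood at −0.04, ELAVL3 at 0.08, L1CAM at 0.155 and SYT1 at 0.20. The better expressed ones included SYT1 (0.28 and 0.32), ELAVL3 (0.21 and 0.57) and ENO2 (0.59 and −0.25), which were singled out after their values were seen.

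TUBB4B, a beta-tubulin present in most cell types, gave the most even values of the family. Its probe sets read 10.57 and 10.60 in the control, 11.42 and 11.39 under hairpin 2, and 11.46 and 11.42 under hairpin 5. Both hairpin arrays were above the control by similar amounts, with mean differences of 0.87 ± 0.03 and 0.81 ± 0.02 (SD, n = 2 hairpins). These names also end in _x_at.

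TUBB, the main beta-tubulin of dividing cells, gave different answers at its 3 probe sets. At 211714_x_at it stood at 10.90, 11.63 and 11.22 on the control, hairpin 2 and hairpin 5 arrays, a mean difference of 0.52 ± 0.29. At 209026_x_at it stood at 10.29, 11.17 and 10.68, a mean difference of 0.64 ± 0.35. Both sets were above the control with each hairpin and further above it with hairpin 2. At 212320_at, the 1 set whose name does not end in _x_at, TUBB stood at 9.66, 9.68 and 9.41, a mean difference of −0.11 ± 0.20, so that hairpin 2 was level with the control and hairpin 5 below it. The direction for TUBB therefore depends on the probe set.

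The other beta-tubulins lay between these. TUBB2A, a class II beta-tubulin, stood at 8.66, 9.40 and 8.96, a mean difference of 0.52 ± 0.31, with hairpin 2 further from the control than hairpin 5. TUBB6, the class V beta-tubulin, stood at 8.95, 9.22 and 9.53, a mean difference of 0.43 ± 0.22, with the order of the hairpins turned. Its difference of 0.58 with hairpin 5 lay just under the 1.5-fold line. Both genes have a single probe set with a plain _at name. TUBB2B, a close copy of TUBB2A and its neighbour in the genome, stood at 2.39, 2.56 and 2.64, at or below the 40th percentile of all probe sets on every array, where a level may be background. A probe set that the annotation gives to both TUBB2A and TUBB2B, and which is no member for that reason, differed by 0.68 and 0.50.

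TUBA1A, the alpha-tubulin of the set, stood at 7.50 in the control, 8.44 (hairpin 2) and 8.17 (hairpin 5), a mean difference of 0.81 ± 0.19 (SD, n = 2 hairpins). Both hairpin arrays were above the control. Its only probe set ends in _s_at, which marks a set shared by several transcripts. The alpha-tubulins TUBA1B and TUBA1C, which flank TUBA1A in the genome and are no members, were higher with both hairpins at all of their probe sets. The 5 _x_at sets of TUBA1B differed by 0.36 to 0.75 with hairpin 2 and by 0.24 to 0.72 with hairpin 5, and its remaining set, near background, by 0.30 and 0.10. The 2 sets of TUBA1C differed by 0.33 to 0.48 and by 0.28 to 0.40.

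**Figure D2:**
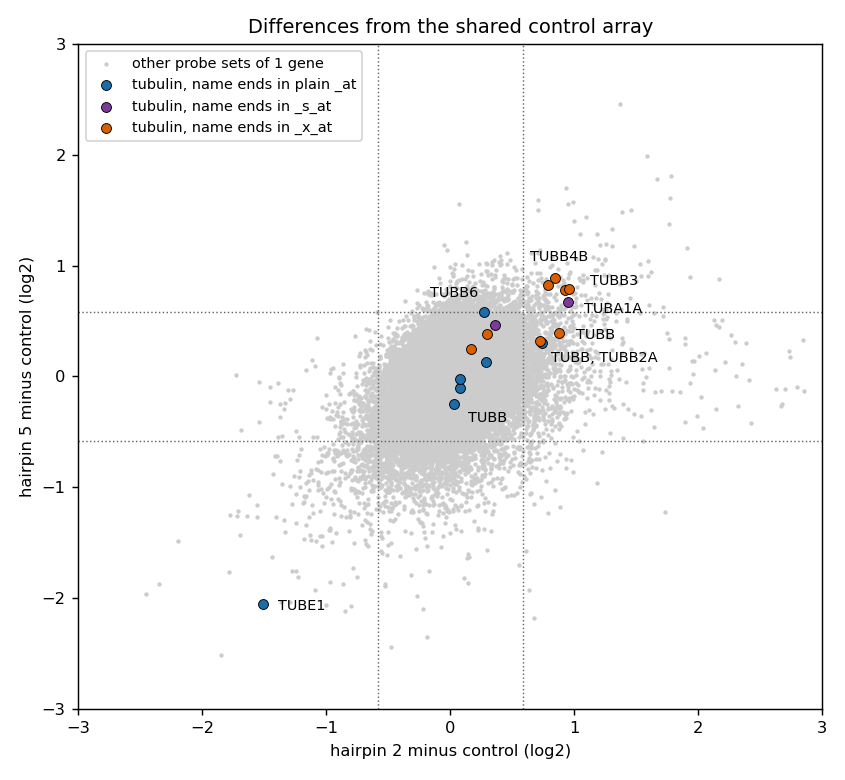
Difference from the control array (log2) with hairpin 2 (horizontal) and hairpin 5 (vertical) for every probe set of 1 gene (grey) and the 17 tubulin probe sets (coloured by the ending of the name), with dotted lines at 1.5-fold; the axes run from −3 to 3 and 15 grey probe sets lie outside. The 5 points of TUBB3, TUBB4B and TUBA1A fall in the upper right corner and TUBE1 in the lower left, while the plain _at set of TUBB lies near 0 at 0.03 and −0.25; both axes share the 1 control array.

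Among the gamma-, delta- and epsilon-tubulins, 0 of 6 probe sets were 1.5-fold higher with both hairpins (0.482% of all probe sets of 1 gene) and 1 was lower (0.808%). TUBG1, the gamma-tubulin of the nucleating ring, stood at 8.76, 9.05 and 8.89, a mean difference of 0.21 ± 0.11, and neither hairpin reached 1.5-fold. TUBD1, delta-tubulin, stood at 5.47, 5.56 and 5.37 at its brightest probe set (231853_at), a mean difference of −0.01 ± 0.13, with the control between the hairpins. Its other sets read lower and were above the control with both hairpins, by 0.29 and 0.38 at 210389_x_at and by 0.36 and 0.47 at 221326_s_at, the latter at levels of 2.27 to 2.74 that may be background. TUBE1, epsilon-tubulin, stood at 5.63 in the control, 4.12 (hairpin 2) and 3.58 (hairpin 5) at 226181_at, a mean difference of −1.78 ± 0.39 (SD, n = 2 hairpins). Both hairpin arrays lay well below the control there. At its second set (230891_at) TUBE1 read 2.34, 2.42 and 2.31, which gives no usable level on any array. The mean over both sets was −0.88.

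With each hairpin taken alone, 8 member probe sets were at least 1.5-fold higher with hairpin 2, against 3.21% of all probe sets of 1 gene, and 1 was lower, against 1.62%. With hairpin 5, 5 were higher, against 1.74%, and 1 was lower, against 4.51%. The 3 sets that met the line with hairpin 2 alone were the _x_at sets of TUBB and the set of TUBB2A. At 2-fold with both hairpins, 0 member sets were higher (0.0706% of all) and TUBE1 was the 1 lower (0.124% of all). At a limit of 0.32 on the log2 scale 8 were higher (2.84% of all) and 1 lower (3.78% of all). The 8 include a TUBD1 set that may be background (221326_s_at). They also include a TUBB set (211714_x_at) that only just met the limit with hairpin 5, at 0.323. Over the 17 sets the differences had medians of 0.36 and 0.38 (hairpins 2 and 5), and 13 were above the control with both hairpins. Over all probe sets of 1 gene the medians were 0.00 and 0.01, and 31.9% were above the control with both. The members include 11 alpha- and beta-tubulin sets, of which 10 were above the control with both hairpins, with medians of 0.79 and 0.58.

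The probe sets of one gene did not always give the same direction, so the values were also read by the kind of set. Of the 17 member sets, 8 have names ending in _x_at, 2 in _s_at and 7 in plain _at. All 8 _x_at sets were above the control with both hairpins, with medians of 0.82 and 0.58, and so were both _s_at sets, with medians of 0.66 and 0.57. Among the 7 plain _at sets, 3 were above the control with both hairpins and the median was 0.08 and −0.03. Name ending and subfamily go together here and cannot be told apart over the members: 7 of the 8 _x_at sets read beta-tubulins, while 4 of the 7 plain _at sets read TUBG1, TUBD1 or TUBE1. Of the 3 plain _at sets of beta-tubulins, 2 (TUBB2A and TUBB6) were above the control with both hairpins and 1 (TUBB) was not. None of these 7 was 1.5-fold higher with both (0.302% of all probe sets without an _x_at or _s_at name), and 1, TUBE1, was lower (0.799%). Whether the transcript of 1 tubulin gene gives signal at the sets of another was not tested. Over all 233 _x_at sets of 1 gene with a mean level of 9 or more, the median difference was −0.01 with each hairpin, and 34.8% were above the control with both. The _x_at sets of TUBB2B (mean 2.53) and TUBD1 (4.18) lie below that level, so the 8 member sets are not fully like these. Sets of unrelated genes also cannot show whether tubulin transcripts match each other's probes.

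**Figure D3:**
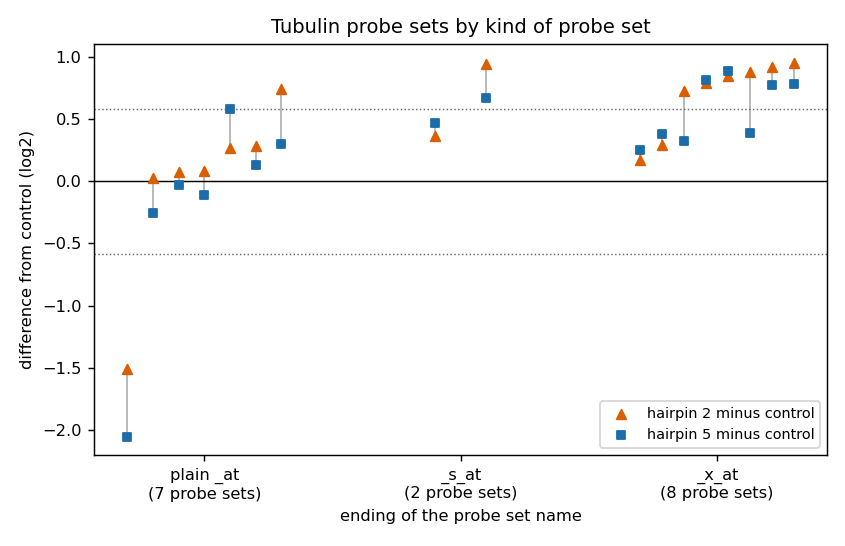
Difference from the control (log2) with hairpin 2 (triangles) and hairpin 5 (squares) for the 17 tubulin probe sets, grouped by the ending of the probe set's name, with a grey line joining the 2 hairpins and dotted lines at 1.5-fold. All 8 _x_at sets lie above 0 with both hairpins, while the 7 plain _at sets run from TUBE1 at −1.51 and −2.06 to TUBB2A at 0.74 and 0.30.

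The members are brighter than most of the array. Of the 17 sets, 14 had a mean level of at least 2.79, the 40th percentile of all probe sets. At that level 0.739% of all probe sets were 1.5-fold higher with both hairpins and 1.23% lower, against 5 and 1 of the members. Among the 1156 probe sets with a mean of 9 or more, a limit chosen after the values were seen, 1.21% were higher and 1.3% lower with both hairpins, and 4 of the 9 members there were higher and 0 lower. All 1156 bright sets together had medians of −0.02 and −0.06. The member counts rest on the contrast that chose the family, and the part of brightness in them was not tested.

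Genes that fold, nucleate, modify or bind tubulin were read beside the members, in 7 lists of related genes. Of these, 122 genes passed the expression filter. At 1.5-fold, 0 of them were higher with both hairpins and 3 were lower, or 2.46%, against 0.759% and 1.59% of the 11865 genes tested. The 3 were TUBGCP3, a subunit of the gamma-tubulin ring (−0.93 and −0.69), ARL2, a small GTPase that acts with the tubulin cofactors (−0.73 and −0.59), and STMN3, a stathmin that binds free tubulin dimers (−0.68 and −0.91). As means over their probe sets and both hairpins, TUBGCP3 stood at −0.36 and STMN3 at −0.33. The count of 0 rests on each gene's brightest probe set: CCT2, a chaperonin subunit singled out after its values were seen, stood at 0.28 there and at 0.85 as the mean over its 2 sets, and 1 of the dimmer TUBA1B sets differed by 0.75 and 0.72. In limma's test of both hairpins against the control, no gene passed an adjusted p of 0.05, not even the targeted UHRF1 (−2.35 and −1.88). With 1 control array and 1 residual degree of freedom, that outcome says nothing about the genes of these lists. With an intensity trend in its variance prior limma called 1 gene, which is in none of the lists.

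By role, 6 further tubulin genes passed the filter, 4 of them above the control with both hairpins, with medians of 0.34 and 0.26 against 0.03 and −0.06 over all genes tested. Of all genes tested, 29.0% were above and 32.3% below the control with both hairpins. Beside TUBA1B and TUBA1C these were TUBB4A (0.68 and 0.25) and the second gamma-tubulin TUBG2 (0.50 and 0.35). TUBA4A differed by −0.25 and 0.11, and TUBA8 by −0.16 and 0.37. TUBAL3 and TUBB1 stayed below the filter. Among the 19 genes of tubulin folding and dimer assembly, 7 were above and 6 below the control with both hairpins, with medians of 0.03 and −0.02. They included the chaperonin subunit CCT6A (0.32 and 0.35) and the cofactor TBCC (0.49 and 0.29) on one side and the prefoldin subunit PFDN2 (−0.47 and −0.80) on the other. In the list of tubulin mRNA autoregulation, TTC5 read 5.15 in the control, 4.07 (hairpin 2) and 5.49 (hairpin 5) at its brightest set, so the hairpins lay on opposite sides of the control. CNOT2, a subunit of the deadenylase that carries out the decay, differed by −0.22 and −0.41, or −0.10 as a mean over its probe sets and both hairpins. CNOT7 differed by −0.38 and −0.03 but by 0.05 as such a mean, so its direction depends on the probe set. CNOT10 differed by 0.31 and 0.05, and TTC5 stood at −0.14 as such a mean.

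The 20 tested genes listed for the gamma-tubulin complex and microtubule nucleation had medians of 0.02 and −0.29. Of these genes, 8 were below and 6 above the control with both hairpins, against 32.3% and 29.0% of all genes tested. Beside TUBGCP3 they included NEDD1, which brings the gamma-tubulin ring to the centrosome (−0.46 and −0.85). On the higher side were CDK5RAP2, which activates the ring (0.64 and 0.41, or 0.06 as a mean over its probe sets and both hairpins), and LGALS3BP (0.61 and 0.43). LGALS3BP was counted in this list, though it is a secreted glycoprotein and no subunit of the ring. Genes of centriole assembly and triplet microtubules, the structures in which epsilon-tubulin acts, had medians of −0.16 and −0.35. Of these 18 genes, 12 were below the control with both hairpins, 4 above, and none by 1.5-fold in the same direction, whereas 32.3% of all genes tested were below and 29.0% above. These counts rest on each gene's brightest probe set. For each lower gene with several sets, the mean over its sets lay nearer the control, as for WDR90 (−0.15) and CEP290 (−0.05). CCP110 turned to 0.015 as such a mean. SASS6, which builds the centriole cartwheel, differed by −0.47 and −0.46 and CEP135 by −0.54 and −0.80, or −0.44 as a mean over its probe sets and both hairpins. TEDC1, which works in a complex with delta- and epsilon-tubulin, was on the other side at 0.56 and 0.36, as was CEP192 at 0.19 and 0.09.

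The 15 tubulin-modifying enzymes had medians of 0.11 and 0.02, 8 above and 4 below the control with both hairpins. For these counts and those of the next list, the shares over all genes tested are 29.0% above and 32.3% below. The glutamylase TTLL5 differed by 0.78 and 0.24, or 0.10 as a mean over its probe sets and both hairpins, and the deacetylase SIRT2 by 0.35 and 0.46, or 0.23 as such a mean. The deglutamylase AGTPBP1 differed by −0.51 and −0.76, or −0.18 as such a mean, and TTLL1 by −0.18 and −0.34. The 37 microtubule-binding and severing proteins had medians of 0.08 and −0.16, 10 above and 13 below, with MAP7D1 (0.74 and 0.32) and TACC1 (0.74 and 0.57, or 0.35 as such a mean) on one side and STMN3 and TACC2 (−0.52 and −0.55, or −0.14 as such a mean) on the other.

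**Figure D4:**
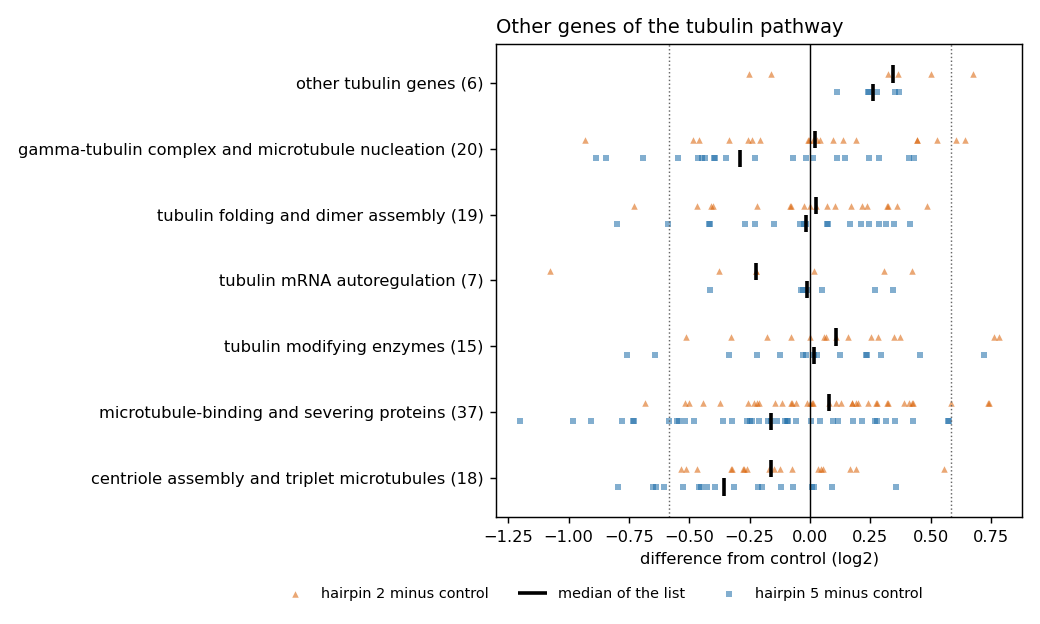
Difference from the control (log2) of each tested gene in the 7 related lists, with hairpin 2 as triangles and hairpin 5 as squares; black bars are list medians, dotted lines 1.5-fold, and the number of genes is in brackets. The other tubulin genes have medians of 0.34 and 0.26, and the centriole list of −0.16 and −0.35. Single genes of every list lie on both sides of 0, except that with hairpin 5 all the other tubulin genes lie above it.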

How the data were processed

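RNA was measured on 3 Affymetrix arrays, 1 for the control and 1 for each hairpin. The deposited table holds log2 values. Per the submitters' processing notes, the authors made them in Affymetrix Expression Console by RMA. The log base was inferred from the values, and versions, settings and centring are not given in the sources used here. No detection calls were used here, so low levels may be background. Probe sets were named through the platform annotation with symbols matched to RefSeq by gene identifier (41037 of 41091). Both hairpins share a source label and were taken as the 2 replicates of depletion in limma. They are different hairpins with 1 array each, so the residual spread in limma includes the difference between hairpins. For each gene the brightest probe set, by its mean on all 3 arrays, was kept. Genes at or above the 40th percentile (3.28) entered limma 3.58.1 (R 4.3.3; lmFit, eBayes, Benjamini-Hochberg over 11865 genes), which has 1 residual degree of freedom and takes the single control to vary as the hairpins do. An exact permutation cannot go below p = 0.333. Each difference is hairpin minus control, hairpin 2 first. Motifs were searched on both strands of 250-base windows.

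The members and lists were chosen with earlier results of these data known. Named were all members, UHRF1, TTC5, all further tubulin genes, and up to 2 genes per direction of each related list, ranked by the smaller of their hairpin differences. IFIT1, CCT2, single markers and the neighbours of members were added after their values were seen. Of 153 related genes listed, 142 had a probe set of their own. Alternatives were other fold limits, other probe sets, expression filters, median centring, cyclic loess, other variance priors and leaving out each hairpin. Differences carry no interval, since the number of arrays limits the precision.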

Additional observations from a re-analysis of the deposited data

How the results depend on the processing

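The count of 5 member probe sets higher with both hairpins was also 5 with arrays centred on their medians, with cyclic loess and with the 40th percentile filter, and 4 among sets with a mean of 9 or more. It was 0 at 2-fold, 8 at the lower fold limit (0.32 on the log2 scale) and 0 without probe sets whose name ends in _x_at or _s_at, since every set that met the line has such a name. Without 1 hairpin it ranged from 5 to 8, the latter without hairpin 5. TUBE1 was the 1 lower set in all of these settings but the limit at a mean of 9, which gave 0 because its probe set is dimmer. The TUBE1 difference was −0.88 as the mean of its probe sets, the second being near background. The TUBB3 difference ran from 0.78 to 0.92 over its alternatives, and it could not be computed without _x_at sets. For the 8 remaining members, 4 of 36 alternatives moved the difference by more than the spread between hairpins. The 36 include leaving out each hairpin, which always shifts the mean of both by less than their SD. Those settings could not count as moved, so the 4 of 36 is no measure of stability. TUBB4B went to 0.84 as the mean of its sets and 0.92 with cyclic loess. TUBB turned to −0.11 without _x_at and _s_at sets, and TUBD1 to 0.25 as the mean of its sets. limma called 0 genes under its alternatives except the intensity trend, which called 1. The scalings moved the median of all probe sets to 0.02 and −0.03 at most. No paired analysis was possible because there is 1 control array for both hairpins, and replicate numbers follow accession order and pair no samples. Depth in the sense of signal over background limits TUBB2B, the dimmest TUBD1 set and the second TUBE1 set.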

Other observations

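Neighbouring genes in the RefSeq annotation of GRCh38.p14 were read beside the members, taking the nearest named protein-coding gene on each side, each at its brightest probe set. FAM229B, which starts back to back with TUBE1, stood at 6.32 in the control, 6.02 (hairpin 2) and 5.85 (hairpin 5), differences of −0.29 and −0.47 on its only probe set, while CCN6 on the other side of TUBE1 was near background on every array. MC1R, just upstream of TUBB3, differed by 0.29 and 0.41 at levels of 4.30 to 4.71, and DEF8, downstream of it, by 0.05 and 0.09. RPS6KB1, the ribosomal S6 kinase gene next to TUBD1, stood at 7.15, 7.98 and 8.01, a difference of 0.83 and 0.86, whereas the brightest TUBD1 set differed by 0.08 and −0.11. AFG3L2, which overlaps TUBB6, differed by −0.32 and −0.28, opposite to TUBB6. CIMIP2A, which overlaps TUBB4B, differed by −0.01 and 0.54 at levels of 3.46 to 4.01. These values have 1 array per hairpin and no test.

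The annotation gives a pair of probe sets to both TUBA3C and TUBA3D, alpha-tubulins best known from testis. Both names end in _x_at, and neither set is among the members. They differed by −0.02 and 0.01 and by 0.19 and −0.07, at levels of 5.96 to 6.22, near or on both sides of the control, whereas TUBA1A, TUBA1B and TUBA1C lay above it with both hairpins. The difference between these genes was not tested.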
